A study of Mus musculus with 9 samples.

Results

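The positional homeobox and T-box factors are transcription factors, together with the Eya cofactors, that tell an embryonic cell which part of the body it belongs to. They were taken as the gene symbols of the families Tbx, Zic, Irx, sine oculis (Six2 and its relatives), Dlx, Msx, Meox, Pax, Lhx, Pitx, Alx, Prrx, Emx, Hand, Eya and Twist that end in a number, plus En1, En2, Lmx1a, Lmx1b, Shox2, Isl1, Tcf21 and Snai2. The choice used the names only, and it gave 84 of the 23420 genes counted. RNA had been sequenced from mesenchymal cells of the thymus, of bone (femur, tibia and pelvis) and of truncal skin (dermis of abdomen and back) of C57BL/6 mice aged 3 to 4 weeks. The labels name no transgene and no treatment, and each tissue had 3 libraries. In all 3 tissues the cells were sorted as positive for the stromal and progenitor antigen SCA1 and unstained by a lineage mix that covers blood cells, endothelium and epithelium, with at least 25000 cells per sample. The preparations differed, since bone was also crushed and its red cells lysed, and how skin was digested was not available to this work, so tissue and preparation cannot be told apart. Thymus libraries are called 2, 3 and 1-3 and the labels do not explain the last name. Whether the 3 libraries of a tissue stem from different mice is not stated. The p-values therefore cover only the variation among these samples, and that may be technical.

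In the embryo these genes are switched on in overlapping domains by signals such as Hedgehog, FGF, BMP, Wnt and retinoic acid, and their combinations fix head from trunk, fore from hind limb, back from belly, and one organ from its neighbour. T-box proteins bind DNA through a conserved T domain, and homeobox proteins through a homeodomain. Many of the genes lie beside a paralogue and share enhancers with it. Fibroblasts of the adult body are known to keep part of this positional code.

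Gene reads ranged from 78757872 in bone 3 to 116759235 in skin 3, and the 84 factors took 0.114 to 0.152% of them. Each of 12 mesenchyme markers was detected in each tissue, and Pdgfra, a receptor of mesenchymal cells, lay at 1129 to 1202 CPM (thymus), 698 to 805 CPM (bone) and 695 to 869 CPM (skin). The 12 markers together were highest in skin, at 55334.5 to 58369.9 CPM (thymus), 68164.7 to 69020.7 CPM (bone) and 337783 to 374487 CPM (skin). CPM are the reads of a gene relative to the size of its library after scaling by its TMM factor, which ran between 1.1 and 1.18 for thymus, 1.16 and 1.23 for bone, and 0.701 and 0.770 for skin. Markers of other cells were present and differed between libraries. Summed over 12 genes, cartilage and bone markers lay at 19.2 to 27.9 CPM (thymus), 30694 to 45913 CPM (bone) and 17.2 to 42.5 CPM (skin). A list of 14 myeloid markers summed to 19.9 to 58.6 CPM (thymus), 3125 to 4291 CPM (bone) and 45.5 to 108 CPM (skin). In skin 3, 15 markers of keratinocytes and hair follicle epithelium summed to 789 CPM, against 270 and 256 CPM in skin 1 and 2. In bulk RNA, fewer cells of a type and less RNA per cell cannot be told apart.

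Many of the factors were tissue restricted in these cells. In no tissue did 29 of the 84 factors (34.5%) reach a mean of 1 CPM, where 41.0% of all genes did not. At a mean of 1 CPM or more, 32 factors were detected in thymus, 44 in bone and 38 in skin. Of all 23420 genes, 12400, 12969 and 12278 were. A set of 24 factors was detected in each of the 3 tissues. That shared set was 28.6% of the factors, while 48.8% of all genes were detected in all 3 tissues. In bone, 12 factors (14.3%) passed 1 CPM and did so in neither other tissue, where 3.20% of all genes did so. For skin this held for 5 factors (5.95%, and 1.60% of all genes), and for thymus for 3 (3.57%, and 1.19% of all genes). Emx1, Lhx3, Lhx4, Pax4, Pax7, Pitx3 and Six6 had 0 reads in all 9 libraries, which include the muscle progenitor gene Pax7 and the pituitary gene Lhx3. The filter on low counts kept 63 factors for testing, and the 21 left out did not exceed 0.618 CPM in any library.

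The tissues differed at many of the tested factors. In thymus, 13 of the 63 tested (20.6%) were higher than in bone, where 16.5% of all genes tested were, and 24 (38.1%) were lower, where 16.1% of all genes were. Against skin, 13 (20.6%) were higher in thymus, with 19.3% of all genes, and 28 (44.4%) were lower, with 18.3% of all genes. Between bone and skin, 18 (28.6%) were higher in bone, with 23.7% of all genes, and 22 (34.9%) were lower, with 23.4% of all genes. These calls come from edgeR's quasi-likelihood test with Benjamini-Hochberg adjustment over 15635 genes, at an adjusted p of 0.05. The 3 comparisons share their groups, so they are not independent of each other.

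The sizes of the differences were large. The median of the absolute log2 fold change over the 63 tested factors was 2.56 for thymus minus bone, 3.08 for thymus minus skin and 2.83 for bone minus skin, while over all genes tested it was 0.545, 0.631 and 0.761. The signed medians of the factors were -0.71, -1.04 and -0.25, against 0.02, 0.03 and 0.03 over all genes. A factor counted as apart in a tissue if both comparisons of that tissue passed the test, with 1 direction and at least 2-fold each. In thymus, 7 were apart upward (11.1%, with 4.05% of all genes) and 15 downward (23.8%, with 3.83%). In bone, 8 were apart upward (12.7%, with 6.51%) and 8 downward (12.7%, with 3.86%), and the downward count was 5 without thymus 1-3. In skin, 13 were apart upward (20.6%, with 5%) and 6 downward (9.52%, with 7.55%). Apart in at least 1 tissue were 45 of the 63 (71.4%), where 25.9% of all genes tested were. The factors could pass the filter through a single tissue, so these shares describe the genes tested and not the whole list.

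**Figure D1:**
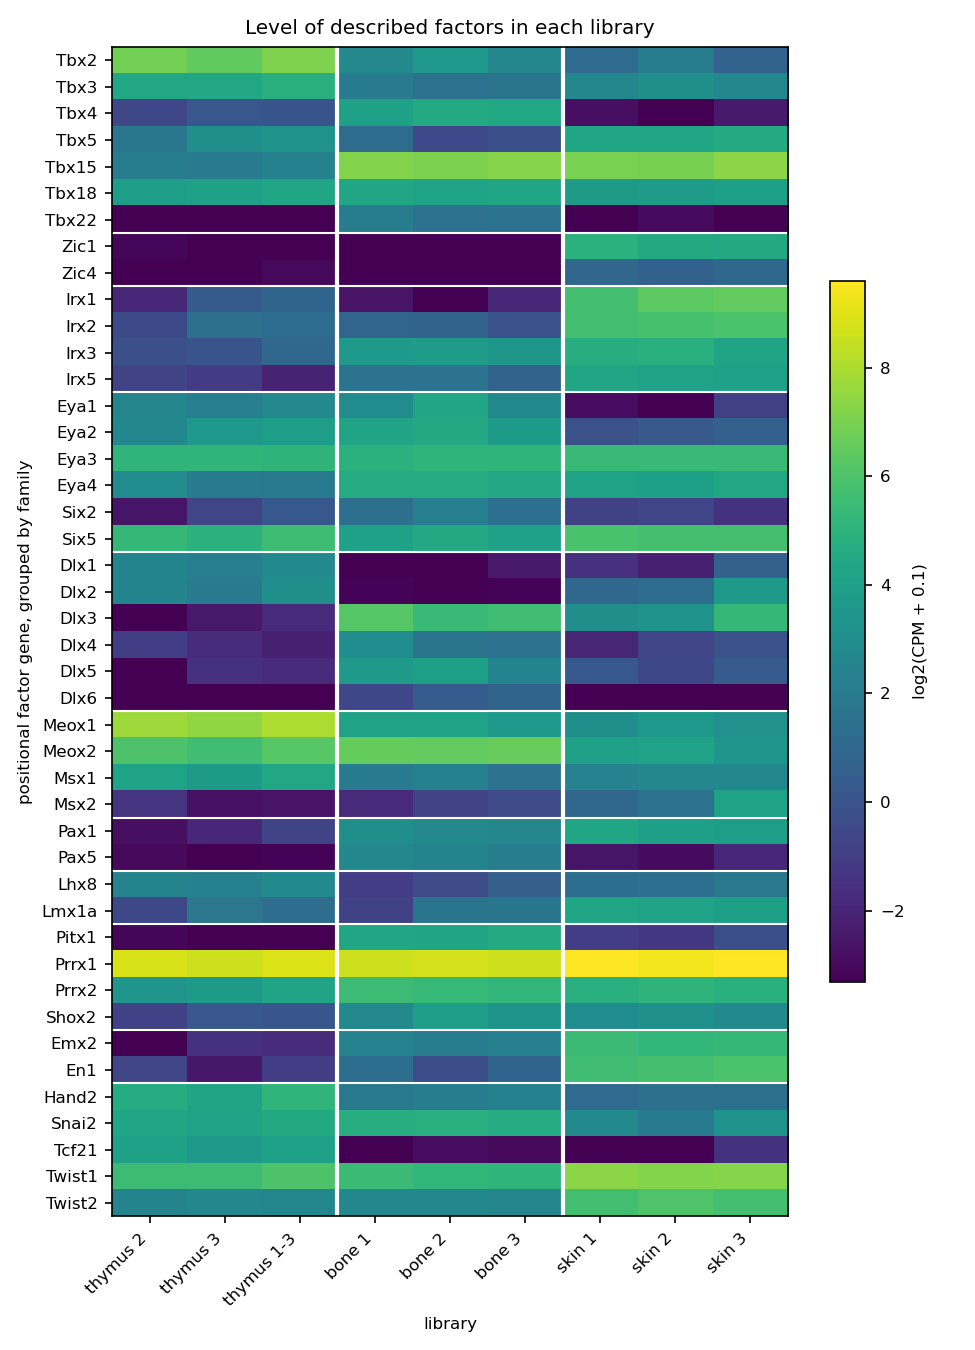
Level of the factors described below as log2(CPM + 0.1), with 1 row per gene in family order and 1 column per library, thymus left, bone middle and skin right, and lighter cells for higher levels. Prrx1 was bright in all 9 libraries, while Tbx2 and Meox1 stood out in thymus, Pitx1 and Tbx4 in bone, and Zic1, Irx1 and En1 in skin.

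**Figure D2:**
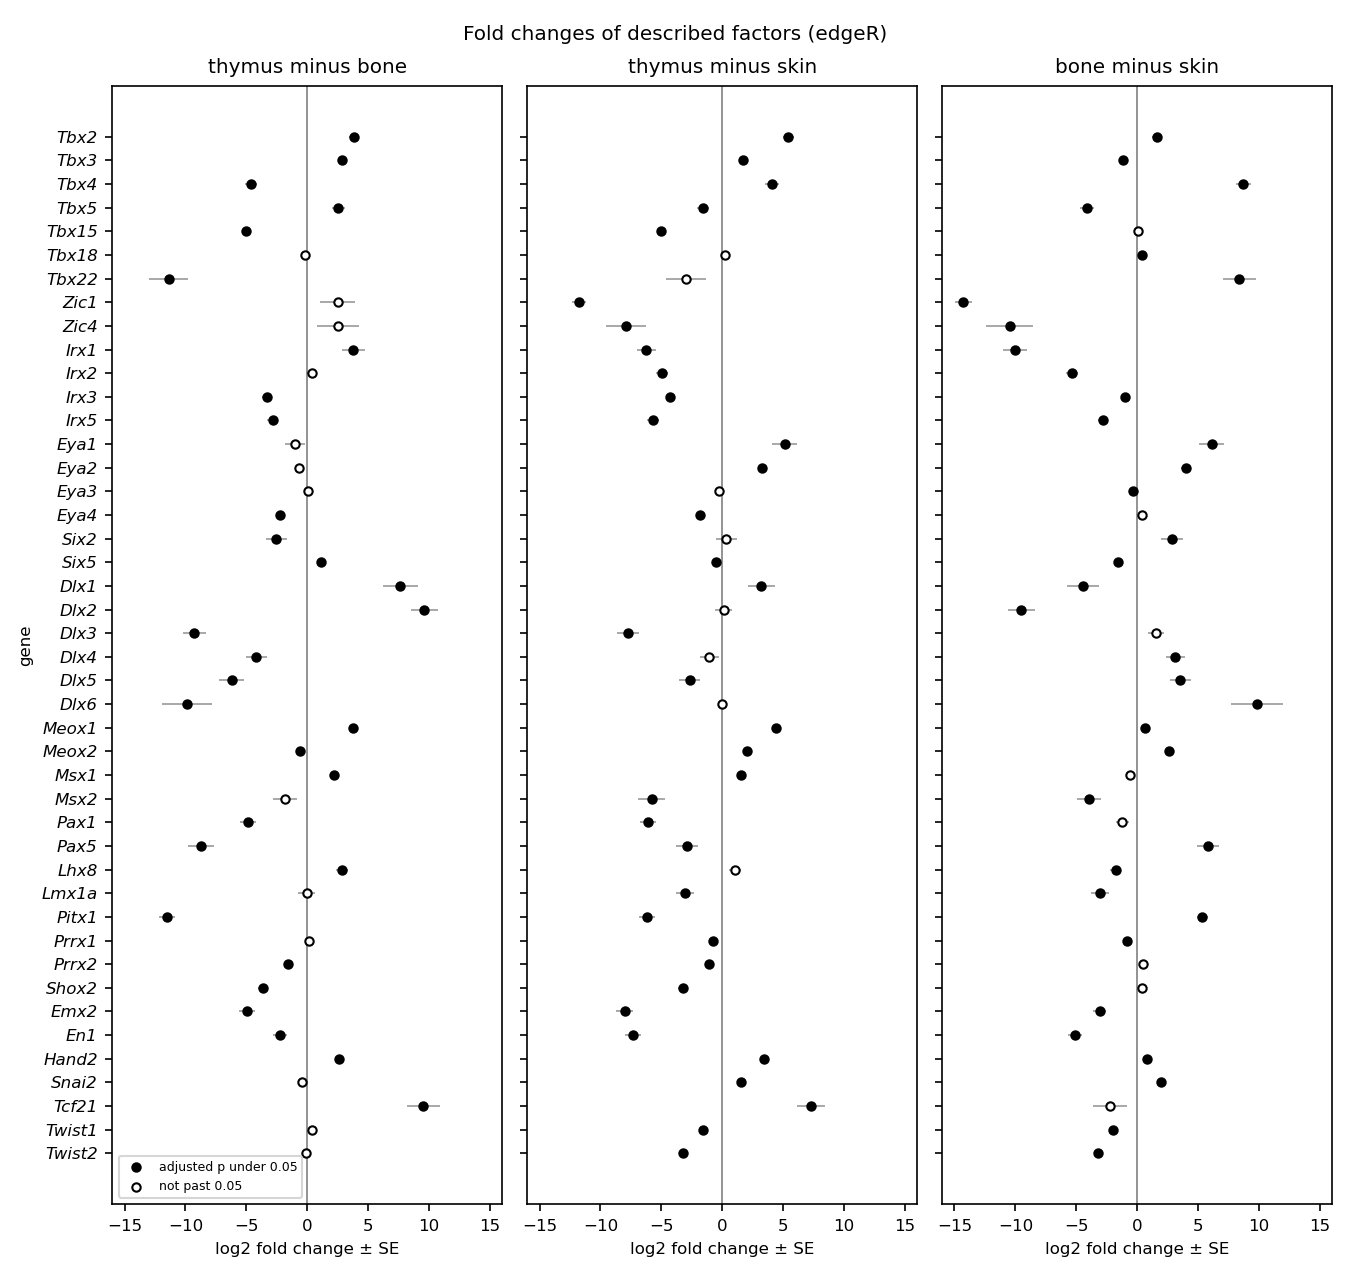
Log2 fold change of the same factors in the 3 comparisons of tissues, with bars of 1 SE, filled points where the adjusted p of edgeR's quasi-likelihood test was under 0.05 and open points elsewhere. The points farthest from 0, such as Zic1 and Pitx1, belong to genes with few or 0 reads in the lower tissue, where the fitted size depends on edgeR's prior count.

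The factors described had a mean of at least 10 CPM in some tissue, or were apart upward with at least 1 CPM in the highest tissue, or apart downward with at least 1 CPM in both other tissues. Values below are given for thymus 2, 3 and 1-3, then bone 1, 2 and 3, then skin 1, 2 and 3. Fold changes are log2 values ± SE of the first tissue minus the second, with adjusted p from edgeR's quasi-likelihood test. The SE is approximate, since it was derived from the F statistic of the test.

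Among the T-box genes, each tissue had its own leading members. Tbx2, a repressor of limb, heart and palate development, was at 119, 86.1 and 139.6 CPM in thymus, 6.79, 11.7 and 6.11 CPM in bone, and 2.16, 4.43 and 1.55 CPM in skin. The lowest thymus library was above the highest of the other tissues, and bone was above skin without overlap, by 1.61 ± 0.39 (adjusted p = 0.00748). The thymus differences were 3.81 ± 0.41 over bone (adjusted p = 8.47e-05) and 5.42 ± 0.45 over skin (adjusted p = 1.18e-05). Its closest relative Tbx3, which acts in limb, heart and mammary development, was at 21.3, 21.4 and 27.6 CPM in thymus, 3.82, 2.78 and 3.04 CPM in bone, and 6.39, 8.65 and 6.52 CPM in skin. The 3 tissues did not overlap for Tbx3, with thymus highest and bone lowest. It was higher in thymus than in bone (2.87 ± 0.23, adjusted p = 3.17e-06) and than in skin (1.71 ± 0.22, adjusted p = 8.45e-05). Bone minus skin for Tbx3 was -1.16 ± 0.22 (adjusted p = 0.00103). That call was lost with library size alone and in the 3 limma fits on RPKM (largest adjusted p = 0.125).

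The limb-type T-box genes were split between bone and skin. Tbx4, a gene of the hind limb and of lung mesenchyme, was at 0.571, 1.03 and 0.931 CPM in thymus, 16.8, 23.7 and 21.8 CPM in bone, and 0.0450, 0 and 0.0923 CPM in skin. All 3 tissues were separate, with bone far above thymus and thymus above skin. Bone exceeded skin by 8.71 ± 0.61 (adjusted p = 8.66e-07), or by 9.62 without skin 3. Tbx5, its forelimb and heart counterpart, was at 3.30, 8.53 and 9.51 CPM in thymus, 2.25, 0.614 and 0.781 CPM in bone, and 19.8, 19.4 and 24.0 CPM in skin. The groups were again separate, in another order, with skin highest and bone lowest. Tbx5 was lower in bone than in skin (log2 -4.12 ± 0.56, adjusted p = 0.000171) and higher in thymus than in bone (2.55 ± 0.52, adjusted p = 0.00383), at -4.92 and 3.35 without bone 1. Its thymus minus skin value of -1.57 ± 0.50 (adjusted p = 0.0300) lost its call when thymus 2, thymus 3, skin 1, skin 2 or skin 3 was left out (adjusted p of 0.0588 to 0.0752).

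Tbx15, Tbx18 and Tbx22 completed the group. Tbx15, which shapes the limb and axial skeleton and the border between back and belly coat colour in mice, was at 4.25, 3.92 and 4.97 CPM in thymus, 144, 135 and 153 CPM in bone, and 129, 125 and 162 CPM in skin. Thymus was far below both, and bone and skin overlapped (bone minus skin 0.05 ± 0.14, adjusted p = 0.782). Tbx18, a gene of somites, sinus node and urinary tract mesenchyme, was nearly level, at 15.3, 17.0 and 19.2 CPM in thymus, 20.0, 17.7 and 20.1 CPM in bone, and 13.2, 14.2 and 15.5 CPM in skin. Its bone minus skin value of 0.43 ± 0.16 (adjusted p = 0.0447) lost its call without any library other than thymus 1-3 (adjusted p of 0.0513 to 0.141). Tbx22, a palate gene of the X chromosome, was at 0, 0 and 0 CPM in thymus, 4.31, 2.75 and 2.92 CPM in bone, and 0, 0.0293 and 0 CPM in skin. With 0 reads in thymus and 1035 in bone, it was at least 376-fold lower in thymus (floor of 3 reads over the group). Tbx1, the pharyngeal gene of the human DiGeorge region, lay below the level for description but was apart downward in bone, at 0.159, 0.218 and 0.823 CPM in thymus, 0, 0 and 0.0434 CPM in bone, and 1.77, 1.76 and 1.5 CPM in skin. Tbx21, the T-bet gene of T and natural killer cells, did not exceed 0.209 CPM in any library.

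Zic genes encode zinc finger factors of the dorsal neural tube and dorsal somite, and in these cells Zic1 and Zic4 were skin genes. Zic1 was at 0.0168, 0 and 0 CPM in thymus, 0, 0 and 0 CPM in bone, and 29.9, 23.0 and 21.9 CPM in skin. All skin libraries were high, and 2 reads in all were counted in thymus. Zic1 was at least 2618-fold lower in bone than in skin (floor of 3 reads over the group). Zic4 was at 0, 0 and 0.0196 CPM in thymus, 0, 0 and 0 CPM in bone, and 1.8, 1.51 and 1.95 CPM in skin. It followed the same pattern at a lower level, 302-fold lower in thymus (95% counting interval 83.0 to 2500) and at least 184-fold lower in bone. Zic2 and Zic5 did not exceed 0.520 CPM in any library and were highest in bone. They had 126 and 30 reads in bone, 6 and 0 in skin, and 0 in thymus. Zic2 was lower in thymus than in bone (adjusted p = 0.0329), and its bone minus skin value did not pass (adjusted p = 0.132). Zic1 and Zic4 lie head to head on chromosome 9, 3.17 kb apart by the deposited coordinates, and share 60 exon bases on opposite strands in the GENCODE annotation. How the counting treated strand is not known here, so reads in that stretch could have gone to either gene. The promoters of this divergent pair are shown because both genes had the same pattern. They run from 250 bases before to 50 after the start in RefSeq (build GRCm38.p6), chr9:91365719-91366018 on the minus strand for Zic1 and chr9:91368722-91369021 on the plus strand for Zic4.
Zic1: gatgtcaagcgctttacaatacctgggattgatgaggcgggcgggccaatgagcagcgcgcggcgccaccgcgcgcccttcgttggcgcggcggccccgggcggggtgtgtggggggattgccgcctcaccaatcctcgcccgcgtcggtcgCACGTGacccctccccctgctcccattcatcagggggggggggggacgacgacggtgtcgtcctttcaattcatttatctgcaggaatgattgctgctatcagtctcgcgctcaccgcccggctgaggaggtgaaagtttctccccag
Zic4: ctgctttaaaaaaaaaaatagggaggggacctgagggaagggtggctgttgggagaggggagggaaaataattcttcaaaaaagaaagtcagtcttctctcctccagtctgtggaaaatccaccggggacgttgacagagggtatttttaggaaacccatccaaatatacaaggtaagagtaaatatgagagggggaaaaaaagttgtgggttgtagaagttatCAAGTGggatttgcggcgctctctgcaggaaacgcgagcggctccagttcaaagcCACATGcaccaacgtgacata
Capitals mark the E box pattern CANNTG, read on both strands, which 72.3% of 32851 promoters of this length in the table hold. The sequences differ in composition, with 65.3% G or C and 31 CpG sites for Zic1, and 46% and 8 for Zic4.

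Iroquois genes, homeobox factors that pattern neural, cardiac and limb tissue, were highest in skin. Irx1 was at 0.168, 1.16 and 1.71 CPM in thymus, 0.0582, 0 and 0.174 CPM in bone, and 53.2, 81.0 and 91.7 CPM in skin. Irx2 was at 0.638, 2.66 and 2.27 CPM in thymus, 1.75, 1.66 and 0.846 CPM in bone, and 53.9, 57.8 and 61.3 CPM in skin. Both were separate in skin, by -6.23 ± 0.79 and -4.96 ± 0.50 for thymus minus skin (adjusted p = 0.000210 and 4.43e-05) and by -10.01 ± 1.00 and -5.34 ± 0.51 for bone minus skin (adjusted p = 3.47e-05 and 2.55e-05). Irx1 was also called higher in thymus than in bone (3.78 ± 0.95, adjusted p = 0.0132), with overlapping values, and that call was lost without thymus 1-3 (adjusted p = 0.0514) and the value was 3.13 without bone 2 and 5.14 without bone 3. Bone minus skin for Irx1 was -9.36 without bone 2 and -11.36 without bone 3, and thymus minus skin -6.82 without thymus 1-3. Irx3 was at 0.789, 0.920 and 1.98 CPM in thymus, 12.1, 13.6 and 11.5 CPM in bone, and 26.1, 27.5 and 18.6 CPM in skin. Irx5 was at 0.537, 0.377 and 0.137 CPM in thymus, 2.94, 2.96 and 1.66 CPM in bone, and 19.2, 18.0 and 16.9 CPM in skin. For this second pair the order in CPM was thymus, bone, skin from low to high with no overlap. Thymus minus bone was -3.33 ± 0.34 for Irx3 (adjusted p = 1.69e-05) and -2.83 ± 0.43 for Irx5 (adjusted p = 0.000333). Bone minus skin was -2.84 ± 0.41 for Irx5 (adjusted p = 0.000164), and -0.96 ± 0.31 for Irx3 (adjusted p = 0.0221), a call lost without bone 1, bone 3, skin 1 or skin 2 (adjusted p of 0.0611 to 0.0834). The Irx3 call was also lost with library size alone and in the 3 limma fits on RPKM (largest adjusted p = 0.474). Irx4 was detected in skin at 0.292, 0.176 and 0.646 CPM, with 0 reads in thymus and in bone, and Irx6 was not tested. Each of the 5 Iroquois genes tested was called lower against skin, both in thymus and in bone. Of all genes tested, 18.3% were lower in thymus than in skin and 23.4% lower in bone than in skin. Irx4 could pass the filter on low counts through skin only.

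The sine oculis homeobox proteins act with Eya proteins, phosphatases that serve as their coactivators, in muscle, kidney, ear and pharyngeal development. Eya1 was at 5.83, 4.57 and 6.69 CPM in thymus, 7.45, 19.2 and 7.06 CPM in bone, and 0.0337, 0 and 0.438 CPM in skin. Eya2 was at 6.56, 12.2 and 14.4 CPM in thymus, 18.8, 22.5 and 12.9 CPM in bone, and 0.810, 1.11 and 1.46 CPM in skin. Both were low in each skin library. Thymus minus skin was 5.13 ± 1.03 for Eya1 (adjusted p = 0.00321), or 8.15 without skin 3, and 3.29 ± 0.36 for Eya2 (adjusted p = 2.43e-05). Eya4 was at 7.38, 4.09 and 3.64 CPM in thymus, 24.7, 24.7 and 20.4 CPM in bone, and 17.5, 16 and 20.6 CPM in skin. It was the opposite case, low in thymus without overlap (-2.21 ± 0.26 against bone, adjusted p = 5.92e-05, and -1.84 ± 0.26 against skin, adjusted p = 0.000177). Eya3 was at 34.7, 35.4 and 34.0 CPM in thymus, 29.9, 35.3 and 35.5 CPM in bone, and 42.3, 42.3 and 41.5 CPM in skin. This was the most even of the 4, with bone minus skin at -0.32 ± 0.12 (adjusted p = 0.0477), a call lost without any library other than thymus 1-3 (adjusted p of 0.0643 to 0.145) and of the opposite sign with library size alone as the scaling (0.36).

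Of the partners of the Eya proteins, Six2 and Six5 differed between tissues. Six4, a factor of muscle development, was at 5.52, 3.74 and 3.24 CPM in thymus, 6.45, 11.8 and 5.61 CPM in bone, and 7.38, 3.50 and 3.93 CPM in skin, and passed in no comparison. Six2, known from kidney and skull base progenitors, was at 0.0671, 0.552 and 1.07 CPM in thymus, 2.59, 4.64 and 2.53 CPM in bone, and 0.495, 0.557 and 0.277 CPM in skin. Each bone library was above all others, by -2.53 ± 0.88 for thymus minus bone (adjusted p = 0.0444) and 2.88 ± 0.89 for bone minus skin (adjusted p = 0.0196). The first call was lost without any library other than thymus 1-3 (-3.39 without it) and skin 3 (adjusted p of 0.0503 to 0.141), and the second without bone 2 or skin 3 (adjusted p = 0.0718 and 0.0533). Six5, which lies beside the myotonic dystrophy kinase gene, was at 39.0, 32.0 and 47.8 CPM in thymus, 16.7, 21.8 and 17.0 CPM in bone, and 58.8, 54.5 and 54.5 CPM in skin. Bone was lowest without overlap (thymus minus bone 1.1 ± 0.17, adjusted p = 0.000422, and bone minus skin -1.60 ± 0.17, adjusted p = 1.87e-05). Thymus minus skin for Six5 was -0.50 ± 0.17 (adjusted p = 0.0351), but 0.12 with library size alone, and the call was lost without thymus 2, thymus 3, skin 1, skin 2 or skin 3 (adjusted p of 0.0545 to 0.145).

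The 6 Dlx homeobox genes, which lie in 3 convergent pairs and pattern the jaws, teeth, forebrain and skeleton, were divided by pair. Dlx1 was at 5.52, 4.54 and 7.0 CPM in thymus, 0, 0 and 0.0868 CPM in bone, and 0.247, 0.117 and 1.45 CPM in skin. Dlx2 was at 5.65, 4.08 and 8.43 CPM in thymus, 0.00971, 0 and 0.0108 CPM in bone, and 1.92, 2.29 and 12.6 CPM in skin. Both were present in each thymus library and nearly absent from bone, and skin 3 was well above skin 1 and 2. With 2 reads in bone, Dlx2 was 927-fold higher in thymus (95% counting interval 256 to 7658). Dlx1 exceeded bone by 7.64 ± 1.45 in thymus (adjusted p = 0.00226), or by 7.03 without bone 2 and 12.16 without bone 3. Thymus minus skin for Dlx1 was 3.22 ± 1.14 (adjusted p = 0.0455), a call lost without thymus 2, thymus 3, thymus 1-3, skin 1 or skin 2 (adjusted p of 0.0822 to 0.133), and 4.94 without skin 3. Bone minus skin for Dlx1 was -4.42 ± 1.31 (adjusted p = 0.0176), or -3.81 without bone 2 and -8.94 without bone 3, and was no longer called without skin 3 (-2.71, adjusted p = 0.0725). That call was also lost in the 3 limma fits on RPKM (largest adjusted p = 0.449). For Dlx1, bone 1 had 0 counted reads but a deposited RPKM of 0.177, above the 0.103 and 0.0444 of skin 1 and 2. Dlx1 shares exon bases with the antisense gene Dlx1as, which did not exceed 0.392 CPM. The promoters of this pair, 9.43 kb apart on chromosome 2, are shown because both genes were detected in thymus and nearly absent from bone. They come from RefSeq (build GRCm38.p6), chr2:71529195-71529494 on the plus strand for Dlx1 and chr2:71546705-71547004 on the minus strand for Dlx2.
Dlx1: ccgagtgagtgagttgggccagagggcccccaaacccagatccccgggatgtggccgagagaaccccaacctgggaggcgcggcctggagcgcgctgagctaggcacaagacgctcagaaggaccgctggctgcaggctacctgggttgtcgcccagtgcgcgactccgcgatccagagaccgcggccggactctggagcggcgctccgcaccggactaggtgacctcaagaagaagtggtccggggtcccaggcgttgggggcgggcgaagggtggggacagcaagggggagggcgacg
Dlx2: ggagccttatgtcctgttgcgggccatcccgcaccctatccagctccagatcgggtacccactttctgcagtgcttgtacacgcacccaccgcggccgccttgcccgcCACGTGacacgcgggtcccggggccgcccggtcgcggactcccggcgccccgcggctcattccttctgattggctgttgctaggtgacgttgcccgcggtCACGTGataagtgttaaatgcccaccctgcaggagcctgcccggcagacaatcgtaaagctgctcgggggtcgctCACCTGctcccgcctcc
Capitals mark CANNTG as above. Dlx2 had 3 such matches and Dlx1 had 0, and both sequences were rich in G and C, at 69.3% for Dlx1 and 66.3% for Dlx2.

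The other 2 pairs had their highest means in bone, although Dlx3 was not called higher there than in skin. Dlx3, a gene of ectoderm, hair and bone, was at 0, 0.0837 and 0.196 CPM in thymus, 73.7, 43.5 and 49.0 CPM in bone, and 8.33, 9.92 and 39.5 CPM in skin. It was near 0 in thymus, and bone was above skin 1 and 2 by a wide margin but close to skin 3. Thymus minus bone was -9.26 ± 0.97 (adjusted p = 7.24e-05) and thymus minus skin -7.73 ± 0.93 (adjusted p = 0.000149), while bone minus skin was 1.52 ± 0.64 (adjusted p = 0.0777). The first was -8.64 without thymus 2 and -10.34 without thymus 1-3, and the second -7.12 and -8.81 without the same libraries and -6.65 without skin 3. Dlx4, 15.2 kb from it on chromosome 11, was at 0.420, 0.209 and 0.118 CPM in thymus, 7.78, 3.06 and 2.70 CPM in bone, and 0.157, 0.557 and 0.830 CPM in skin. Bone was separate (thymus minus bone -4.17 ± 0.83, adjusted p = 0.00239, and bone minus skin 3.13 ± 0.79, adjusted p = 0.00667). Without bone 1 these were -3.52 and 2.48, and the first was -4.77 without thymus 2. Dlx5, a gene of osteoblasts and the lower jaw, was at 0, 0.259 and 0.196 CPM in thymus, 12, 16 and 5.65 CPM in bone, and 1.08, 0.586 and 1.23 CPM in skin. Its tissues did not overlap, with bone highest (thymus minus bone -6.20 ± 1.01, adjusted p = 0.000935, and bone minus skin 3.53 ± 0.87, adjusted p = 0.00734). Its thymus minus skin value of -2.67 ± 0.89 (adjusted p = 0.0368) lost its call without thymus 1-3, bone 1, bone 2, skin 1, skin 2 or skin 3 (adjusted p of 0.0504 to 0.0841). Without thymus 2 and thymus 3, thymus minus bone for Dlx5 was -5.61 and -6.86, and thymus minus skin -2.08 and -3.33. Dlx6, 9.84 kb from Dlx5 on chromosome 6, was counted in bone alone, at 0.573, 1.25 and 1.69 CPM, and was at least 131-fold lower in thymus and at least 93.9-fold higher in bone than in skin. Cartilage and bone markers were high in the same libraries, with 11 of 12 lower in thymus than in bone and 12 of 12 higher in bone than in skin, and their part in the Dlx values was not tested.

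**Figure D3:**
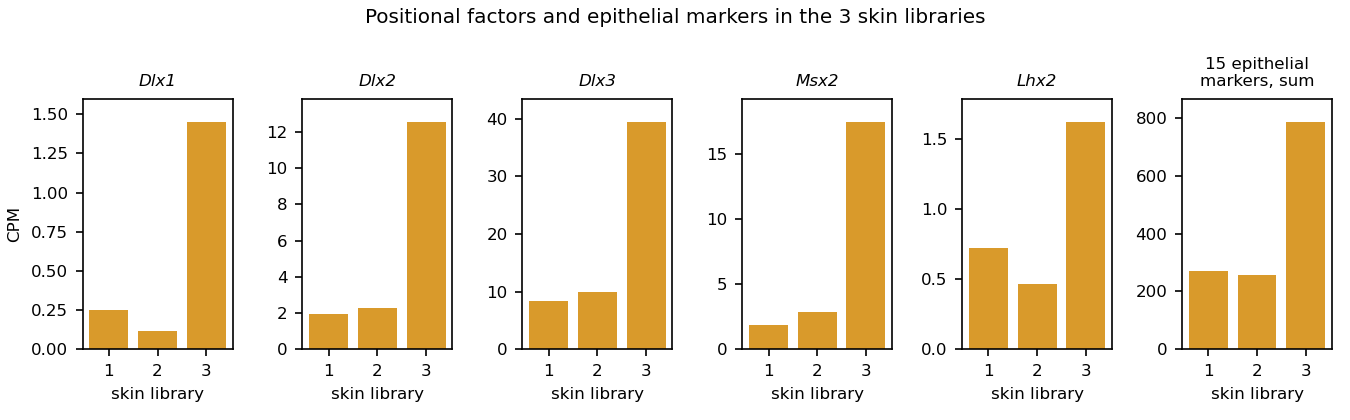
CPM of Dlx1, Dlx2, Dlx3, Msx2 and Lhx2, and the summed CPM of 15 markers of keratinocytes and hair follicle epithelium, in skin 1, 2 and 3, each panel with its own axis from 0. Skin 3 was the highest bar in each panel.

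Skin 3 stood apart at a few factors. Dlx2, Dlx3 and Msx2 were at least 2-fold above both other skin libraries there, 3 of the 38 factors detected in skin (7.89%), where 3.97% of all genes were. Lhx2, a hair follicle stem cell gene, was also highest in skin 3, at 0.720, 0.469 and 1.63 CPM in skin, against 0.252, 0 and 0 CPM in thymus and 0.233, 1.06 and 0.607 CPM in bone. Of the 15 epithelial markers, 12 were highest in skin 3 and 9 were at least 2-fold above both other skin libraries there, with Krt71 of the hair root sheath at 76.3, 70.5 and 240.5 CPM. Krt1, Krt15 and Krt79 were not highest in skin 3, and Krt10 was at 17.4, 17.9 and 18.9 CPM. The part of such cells in these values was not tested. No skin library was 2-fold below both others for any detected factor. Of all genes detected in skin, 1.40% were so in skin 1, 0.839% in skin 2 and 1.94% in skin 3. In thymus 2, 5 of the 32 factors detected in thymus were at least 2-fold below both other thymus libraries, Irx1, Irx2, Lmx1a and Tbx5 among them, where 2.37% of all genes were.

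Of the Msx and Meox factors, Meox1 and Msx1 led in thymus. Meox1, a somite factor, was at 209.7, 176 and 256 CPM in thymus, 17.2, 17.6 and 12.4 CPM in bone, and 8.47, 11.8 and 9.28 CPM in skin. Its relative Meox2, which acts in somites, limb muscle and vessels, was at 63.6, 50.5 and 75.4 CPM in thymus, 91.9, 90.7 and 98.5 CPM in bone, and 16.8, 17.6 and 11.0 CPM in skin. The pair thus differed in which tissue led, thymus for Meox1 and bone for Meox2, with skin lowest in both. Bone minus skin was 0.68 ± 0.19 for Meox1 (adjusted p = 0.0115) and 2.63 ± 0.20 for Meox2 (adjusted p = 1.61e-06). Meox2 was -0.57 ± 0.19 for thymus minus bone (adjusted p = 0.0371), a call lost without thymus 2, thymus 3, bone 1, bone 2 or bone 3 (adjusted p of 0.0713 to 0.135). Msx1, a gene of the face, teeth and limb tip, was at 18.0, 13.1 and 21.3 CPM in thymus, 3.81, 5.01 and 2.78 CPM in bone, and 5.16, 6.29 and 6.37 CPM in skin. Thymus was highest without overlap (2.17 ± 0.28 over bone, adjusted p = 0.000101, and 1.55 ± 0.27 over skin, adjusted p = 0.000817). Msx2, its relative in skull and hair, was at 0.285, 0.0502 and 0.0588 CPM in thymus, 0.194, 0.529 and 0.694 CPM in bone, and 1.87, 2.87 and 17.5 CPM in skin. Skin was separate and skin 3 its highest library, and bone minus skin (-3.97 ± 1.01, adjusted p = 0.00796) was no longer called without it (-2.33, adjusted p = 0.116). Thymus minus skin for Msx2 was -5.79 ± 1.11 (adjusted p = 0.00192), or -4.16 without skin 3 and -7.05 without thymus 2.

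Of the 9 Pax genes, 6 were too low to test. Pax1, which works in the sclerotome and in the pharyngeal pouch that forms the thymus epithelium, was at 0.0420, 0.184 and 0.520 CPM in thymus, 8.52, 6.69 and 5.96 CPM in bone, and 19.9, 15.5 and 14.7 CPM in skin. All 3 tissues were separate, and thymus was lowest (-4.84 ± 0.64 against bone, adjusted p = 0.000224, and -6.08 ± 0.67 against skin, adjusted p = 5.32e-05), while bone minus skin missed the threshold (adjusted p = 0.0802). Without thymus 1-3 the first 2 values were -5.96 and -7.20. Pax9, its relative in pouch, tooth and sclerotome, was at 0.520, 0 and 0.0882 CPM in thymus, 1.87, 2.07 and 3.04 CPM in bone, and 0.169, 0.557 and 0.104 CPM in skin, and passed in no comparison although bone was separate. Pax5, which commits cells to the B lineage, was at 0.0252, 0 and 0.00980 CPM in thymus, 6.38, 5.62 and 4.37 CPM in bone, and 0.0675, 0.0293 and 0.185 CPM in skin. It was a bone signal (thymus minus bone -8.72 ± 1.03, adjusted p = 5.58e-05, and bone minus skin 5.82 ± 0.87, adjusted p = 0.000208). Its thymus minus skin value of -2.89 ± 0.93 (adjusted p = 0.0290) lost its call without thymus 3, thymus 1-3 or skin 3 (adjusted p of 0.0739 to 0.135). That call was also lost with library size alone, in the 3 limma fits on RPKM and with the replicate block (largest adjusted p = 0.768). Without thymus 2, thymus minus bone for Pax5 was -9.86 and thymus minus skin -4.04, and bone minus skin was 6.75 without skin 3. The 10 B lineage markers, Pax5 among them, summed to 70.2 to 115 CPM (thymus), 213 to 259.8 CPM (bone) and 115 to 134 CPM (skin). Ebf1, which mesenchymal cells also express, is on that list, and 1 of the 10 had 0 reads in thymus and 3 in skin. Of the 10, 8 were lower in thymus than in bone and 9 were higher in bone than in skin. Cd79a, a defining B cell gene of the antigen receptor, was at 0.394, 1.76 and 0.284 CPM in thymus, 21.3, 35.0 and 34.3 CPM in bone, and 0.247, 0 and 0.0461 CPM in skin. Their part in the Pax5 values was not tested. Pax3 of muscle and melanocyte precursors did not exceed 0.157 CPM in any library.

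LIM homeobox genes were low apart from Lhx8 and Lmx1a. Lhx8, a gene of forebrain, tooth and palate mesenchyme, was at 5.49, 5.11 and 7.18 CPM in thymus, 0.408, 0.665 and 1.43 CPM in bone, and 2.44, 2.55 and 3.54 CPM in skin. The 3 tissues were separate with thymus highest, by 2.83 ± 0.50 over bone (adjusted p = 0.00106), while thymus minus skin was 1.06 ± 0.47 (adjusted p = 0.0998). Lhx8 was lower in bone, with bone minus skin at -1.77 ± 0.48 (adjusted p = 0.0101), a call lost with library size alone and on RPKM without a filter (largest adjusted p = 0.0716). Without bone 3 its values were 3.46 for thymus minus bone and -2.40 for bone minus skin. Lmx1a, known from the roof plate and inner ear, was at 0.604, 3.41 and 2.34 CPM in thymus, 0.456, 3.00 and 3.11 CPM in bone, and 20.3, 17.5 and 15.9 CPM in skin. Skin was separate (thymus minus skin -3.08 ± 0.74, adjusted p = 0.00872, and bone minus skin -3.03 ± 0.74, adjusted p = 0.00744). Lmx1b, the gene of the dorsal limb and of human nail-patella syndrome, was below the level for description but apart downward in thymus, at 0, 0.0335 and 0 CPM in thymus, 1.02, 1.82 and 1.52 CPM in bone, and 0.810, 0.484 and 0.577 CPM in skin (adjusted p = 0.00336 against bone and 0.00695 against skin). Isl1, a hind limb and heart field gene, did not exceed 2.34 CPM in any library, and was higher in bone than in skin (2.83 on the log2 scale, adjusted p = 0.0360).

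Of the paired-like factors, Alx4, Prrx1 and Prrx2 reached a mean of 1 CPM in all 3 tissues. Prrx1, a marker of limb bud and lateral plate mesenchyme, was at 455, 395 and 483 CPM in thymus, 399, 418 and 387 CPM in bone, and 778, 657 and 765 CPM in skin. Thymus and bone overlapped (0.15 ± 0.14, adjusted p = 0.447). Skin was above both after TMM scaling (thymus minus skin -0.72 ± 0.14, adjusted p = 0.00133, and bone minus skin -0.87 ± 0.14, adjusted p = 0.000289). Neither call held with library size alone or in the 3 limma fits on RPKM (largest adjusted p = 0.577 and 0.276). Prrx2 was at 10.5, 13.2 and 18.3 CPM in thymus, 46.4, 40.8 and 36.6 CPM in bone, and 28.4, 33.3 and 29.4 CPM in skin. Thymus was lowest without overlap (-1.56 ± 0.20 against bone, adjusted p = 0.000103, and -1.12 ± 0.20 against skin, adjusted p = 0.000886). Shox2, a gene of the proximal limb and sinus node, was at 0.487, 1.05 and 1.00 CPM in thymus, 6.80, 14.3 and 10.3 CPM in bone, and 7.84, 8.88 and 7.30 CPM in skin. It shared the low thymus level (-3.63 ± 0.39 against bone, adjusted p = 2.60e-05, and -3.24 ± 0.38 against skin, adjusted p = 4.36e-05). Shox2 shares 153 exon bases with Rsrc1 on the other strand, which was at 20.2 to 41.8 CPM over the libraries.

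Pitx1, which gives the hind limb its identity, was at 0.0168, 0 and 0 CPM in thymus, 19.0, 18.6 and 23.8 CPM in bone, and 0.405, 0.322 and 0.784 CPM in skin. Bone was high and skin low in each library, and thymus held 2 reads in all. Bone exceeded skin by 5.33 ± 0.46 (adjusted p = 3.69e-06), and Pitx1 was 88.0-fold lower in thymus than in skin (95% counting interval 23.9 to 735). The edgeR call for thymus minus skin (adjusted p = 2.68e-05) was lost in the 2 limma fits on RPKM with a pseudocount of 1 (largest adjusted p = 0.258). The face genes Alx1 and Alx4 were low. Alx1 was at 3.05, 1.47 and 2.57 CPM in thymus, 0, 0.256 and 0 CPM in bone, and 0 reads in skin, and was higher in thymus than in skin (adjusted p = 0.00764). Alx4 lay between 4.28 and 11.7 CPM in the 9 libraries and passed in no comparison.

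Emx2 and En1 were skin genes. Emx2, a factor of the cortex, kidney and shoulder blade, was at 0, 0.259 and 0.216 CPM in thymus, 5.15, 4.40 and 4.83 CPM in bone, and 44.8, 38.0 and 39.0 CPM in skin. The order was thymus, bone, skin from low to high with no overlap (thymus minus bone -4.92 ± 0.64, adjusted p = 0.000275, and bone minus skin -3.08 ± 0.54, adjusted p = 0.00112), with thymus minus bone at -4.32 without thymus 2 and -5.53 without thymus 3. Its antisense neighbour Emx2os, with which it shares 264 exon bases, was at 13.2 to 19.0 CPM in skin, so part of the skin reads of either gene may belong to the other. En1, which marks a lineage of back dermal fibroblasts in mice, was at 0.545, 0.0753 and 0.421 CPM in thymus, 2.45, 0.733 and 1.67 CPM in bone, and 49.2, 55.8 and 61.2 CPM in skin. Skin was far above both (thymus minus skin -7.32 ± 0.67, adjusted p = 2.34e-05, and bone minus skin -5.10 ± 0.59, adjusted p = 8.78e-05). Thymus was lower than bone at En1 (-2.22 ± 0.58, adjusted p = 0.0158), a call lost without bone 1 (-1.78, adjusted p = 0.0548). Emx1 and En2 were not tested.

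The basic helix-loop-helix factors divided between thymus and skin. Hand2, a gene of the heart, posterior limb and pharyngeal arches, was at 25.8, 18.9 and 35.5 CPM in thymus, 3.70, 4.37 and 5.03 CPM in bone, and 2.18, 2.59 and 2.62 CPM in skin. The tissues were separate, and bone minus skin (0.83 ± 0.25, adjusted p = 0.0168) was not called without bone 3 or skin 1 (adjusted p = 0.0593 and 0.0587). Tcf21, a factor of lung, kidney, heart and spleen mesenchyme, was at 16.5, 12.3 and 16.8 CPM in thymus, 0, 0.0341 and 0.0217 CPM in bone, and 0, 0 and 0.277 CPM in skin. It was present in each thymus library and close to 0 elsewhere. Thymus exceeded bone by 9.55 ± 1.34 (adjusted p = 0.000445), or by 10.36 without bone 2. It exceeded skin by 7.30 ± 1.17 (adjusted p = 0.000839), or by 6.70 without skin 1 and 13.59 without skin 3. A list of 8 markers of mesothelium and parathyroid summed to 29.0, 124 and 50.4 CPM in thymus 2, 3 and 1-3, 7.56 to 12.6 CPM in bone and 5.99 to 10.9 CPM in skin, and their part in the Hand2 and Tcf21 values was not tested. The promoters of Hand2 and Tcf21 are shown because both genes were apart upward in thymus, from RefSeq (build GRCm38.p6), chr8:57320733-57321032 on the plus strand for Hand2 and chr10:22820094-22820393 on the minus strand for Tcf21.
Hand2: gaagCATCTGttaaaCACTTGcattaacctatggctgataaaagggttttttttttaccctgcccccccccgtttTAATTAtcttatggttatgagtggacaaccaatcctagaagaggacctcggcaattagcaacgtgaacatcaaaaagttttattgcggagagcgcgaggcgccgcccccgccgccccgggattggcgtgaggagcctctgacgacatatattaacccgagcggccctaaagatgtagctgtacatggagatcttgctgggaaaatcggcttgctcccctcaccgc
Tcf21: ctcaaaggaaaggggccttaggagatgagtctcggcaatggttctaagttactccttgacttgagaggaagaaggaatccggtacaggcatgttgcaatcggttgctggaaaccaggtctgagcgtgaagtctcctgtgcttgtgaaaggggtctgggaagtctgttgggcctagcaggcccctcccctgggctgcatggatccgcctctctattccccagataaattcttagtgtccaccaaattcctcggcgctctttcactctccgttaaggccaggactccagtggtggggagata
Capitals mark CANNTG or the homeodomain core TAATTA, searched on both strands, the second of which 5.29% of all promoters in the table hold. Hand2 had 2 matches to the first and 1 to the second, and Tcf21 had 0 of either.

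Twist1 and Twist2, repressors of differentiation in mesenchyme and dermis, led in skin, and the neural crest gene Snai2 was low there. Twist1 was at 45.7, 46.4 and 63.2 CPM in thymus, 44.1, 38.0 and 34.8 CPM in bone, and 165, 147 and 154 CPM in skin. Twist2 was at 5.45, 6.45 and 5.95 CPM in thymus, 6.39, 6.47 and 5.75 CPM in bone, and 51.4, 65.2 and 54.0 CPM in skin. Both were separate in skin, by -1.59 ± 0.15 and -3.26 ± 0.17 for thymus minus skin (adjusted p = 1.01e-05 and 8.97e-08) and by -2.0 ± 0.16 and -3.20 ± 0.16 for bone minus skin (adjusted p = 1.96e-06 and 1.40e-07). Thymus and bone overlapped for Twist2 (-0.06 ± 0.15, adjusted p = 0.804). Snai2 was at 19.7, 17.6 and 23.1 CPM in thymus, 26.8, 28.0 and 24.6 CPM in bone, and 7.25, 4.07 and 9.43 CPM in skin. Skin was lowest without overlap (thymus minus skin 1.54 ± 0.26, adjusted p = 0.000636, and bone minus skin 1.93 ± 0.26, adjusted p = 0.000101).

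**Figure D4:**
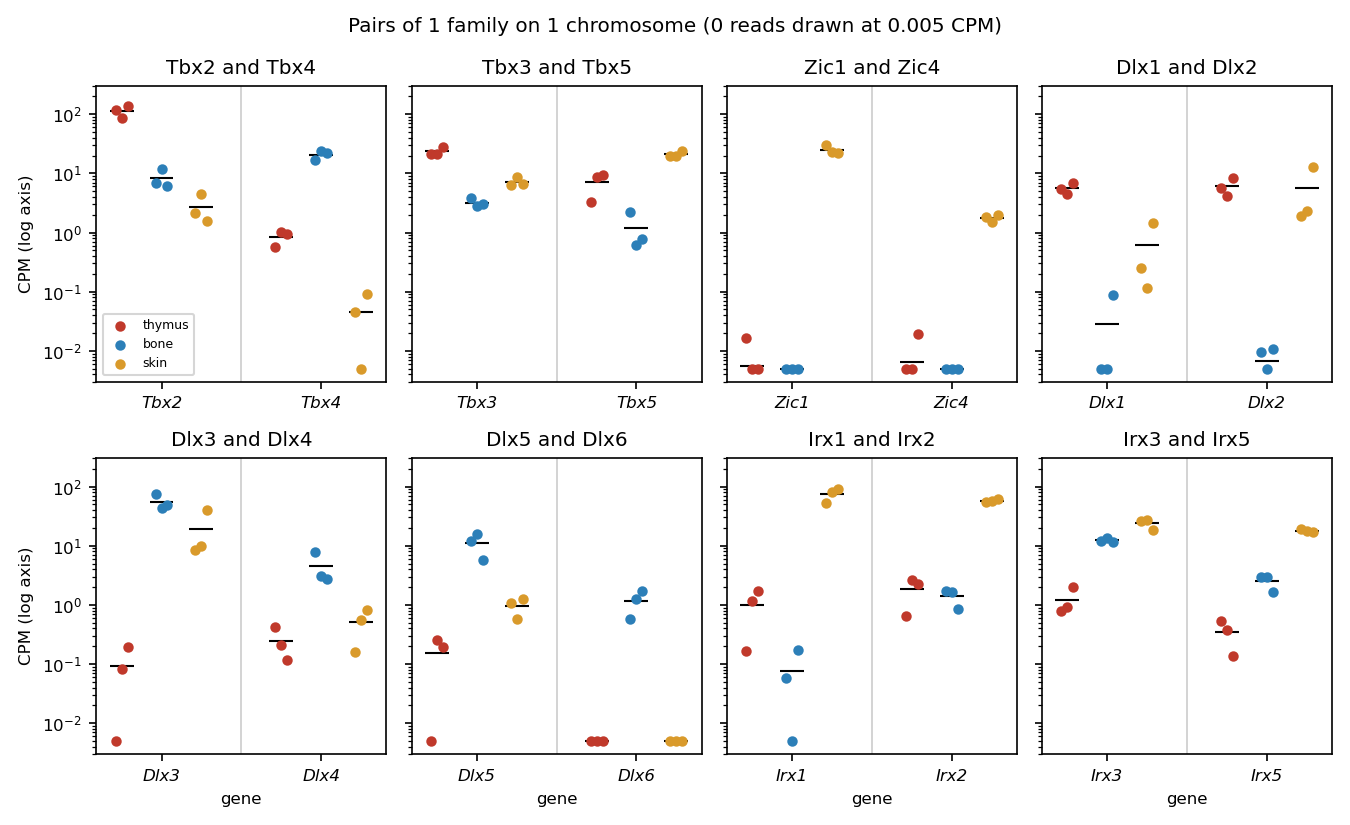
CPM on a log axis for pairs of 1 family on 1 chromosome, with 1 point per library, lines at the mean of each tissue, and libraries with 0 reads drawn at the foot of the axis. In Tbx2 and Tbx4 the points of thymus and bone change places, while Zic1 and Zic4 were both high in skin alone.

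Paralogues on 1 chromosome could be set side by side, and some pairs shared a leading tissue while others did not. Tbx2 and Tbx4, 48.1 kb apart on chromosome 11, had opposite leading tissues, since the mean of Tbx2 was 115 ± 27.0 CPM in thymus and 8.19 ± 3.05 CPM in bone, and that of Tbx4 was 0.844 ± 0.241 CPM in thymus and 20.8 ± 3.55 CPM in bone (SD, n = 3 each). Tbx3 and Tbx5, 150 kb apart on chromosome 5, differed likewise, with Tbx3 at 23.4 ± 3.59 CPM in thymus and 7.18 ± 1.27 CPM in skin, and Tbx5 at 7.11 ± 3.34 CPM in thymus and 21.1 ± 2.54 CPM in skin. In contrast, the means of Zic1 and Zic4 were both highest in skin, and those of Dlx3, Dlx4, Dlx5 and Dlx6 in bone. Irx1 and Irx2, 665 kb apart on chromosome 13, and Irx3 and Irx5, 556 kb apart on chromosome 8, led in skin.

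Levels of different genes were compared within a tissue by RPKM, the authors' reads scaled by gene length and library size, which are not scaled by TMM. In thymus, Meox1 was highest at 98.2 ± 14.9 RPKM, followed by Prrx1 at 60.3 ± 4.00, Tbx2 at 32.8 ± 6.74 and Twist1 at 32.2 ± 5.43 RPKM (SD, n = 3). Meox1 was above Prrx1 in each thymus library, while Tbx2 and Twist1 overlapped. In bone, Prrx1 led at 54.5 ± 3.33 RPKM, followed by Tbx15 at 40.7 ± 2.05, Meox2 at 40.3 ± 1.83 and Prrx2 at 37.9 ± 4.05 RPKM, and the last 3 overlapped. In skin, Prrx1 at 68.3 ± 8.89 and Twist1 at 67.2 ± 6.96 RPKM overlapped, followed by Twist2 at 30.2 ± 2.62 and Tbx15 at 27.0 ± 4.43 RPKM. Meox1 alone made up 25.6% of the summed RPKM of the factors in thymus, and Prrx1 15.1% in bone and 18.2% in skin.

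**Figure D5:**
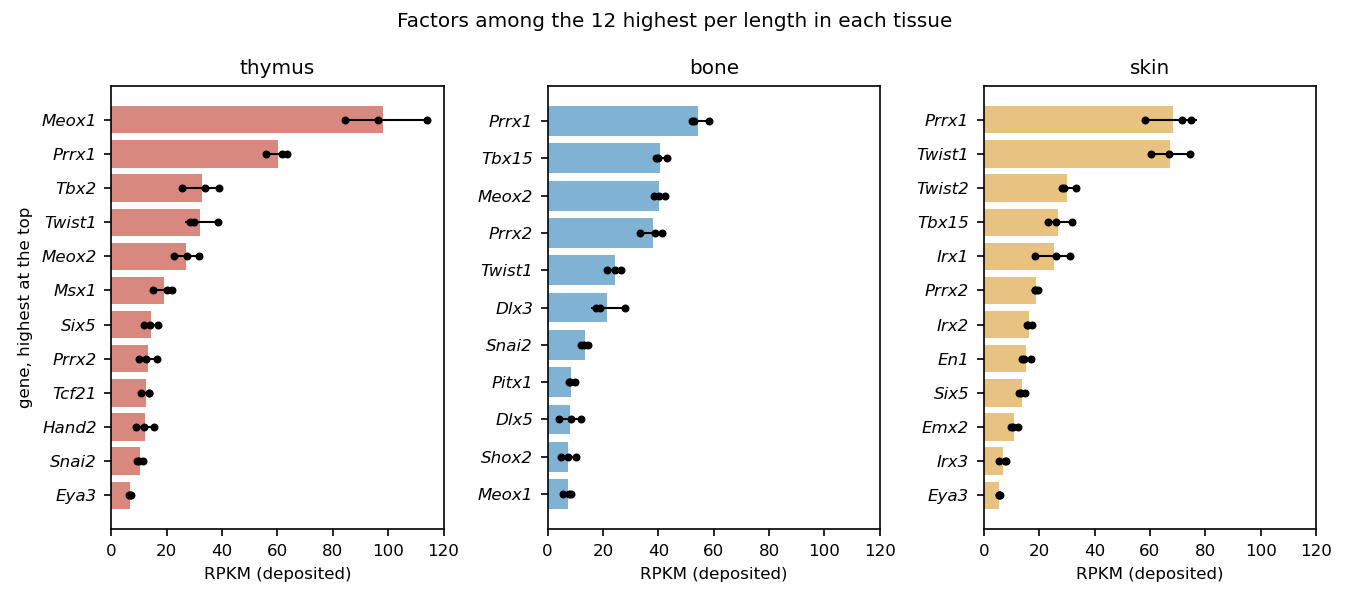
Factors among the 12 highest by mean RPKM in each tissue, with bars at the mean, lines of 1 SD and points for the 3 libraries. Meox1 stood above the rest in thymus, Prrx1 led in bone, and Prrx1 and Twist1 overlapped at the top in skin.

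What the factors share in sequence was described from their promoters. RefSeq (build GRCm38.p6) had 68 promoters for 56 of the 84 genes. Their median content of G or C was 61%, against 52.7% over all 32851 promoters in the table, and their median number of CpG sites was 17.5, against 7. The homeodomain core TAATTA was in 6 of 68 (8.82%, and 5.29% of all promoters), in Emx2, Hand2, Msx2, Prrx1, Tbx19 and Tbx6. The T-box core GGTGTGA was in 0 of 68, and 3.98% of all promoters held it. CANNTG was in 38 (55.9%, and 72.3% of all), and the TATA box TATAAA was in 8 (11.8%, and 13.6% of all). All motifs were searched on both strands, and a match is a description of letters.

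Genes that work with these factors were taken as 3 lists, whose counts stand beside the shares of all genes tested, which were 16.5% higher and 16.1% lower in thymus than in bone, 19.3% and 18.3% for thymus against skin, and 23.7% and 23.4% for bone against skin. Of 19 homeodomain cofactors tested, 9 were higher and 2 lower in thymus than in bone, 7 higher and 6 lower in thymus than in skin, and, for bone against skin, 2 higher and 9 lower (medians 0.76, 0.24 and -0.47). Ldb2, a LIM domain binding protein, averaged 30.5 ± 3.72 CPM in thymus, 22.8 ± 1.85 CPM in bone and 163 ± 11.5 CPM in skin (bone minus skin -2.84 ± 0.14, adjusted p = 1.15e-07). Of the Groucho family of corepressors, Tle1 was at 61.9 ± 11.4 CPM in thymus, 23.1 ± 3.52 CPM in bone and 27.2 ± 0.996 CPM in skin, and Tle2 at 5.15 ± 1.5 CPM in thymus, 27.5 ± 7.58 CPM in bone and 8.38 ± 2.29 CPM in skin (SD, n = 3). Their thymus minus bone values had opposite signs, 1.42 ± 0.17 for Tle1 (adjusted p = 4.94e-05) and -2.42 ± 0.30 for Tle2 (adjusted p = 8.92e-05). Aes, a short relative of the Groucho proteins, was lower in bone than in skin (log2 -1.60 ± 0.22, adjusted p = 0.000117).

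Other patterning factors of mesenchyme, 35 tested and En1 among them, were, beside the same shares of all genes, 10 higher and 12 lower in thymus than in bone, 10 higher and 7 lower in thymus than in skin, and, for bone against skin, 15 higher and 10 lower (medians -0.05, 0.04 and 0.09). Sox6, a cartilage factor, averaged 1.74 ± 0.674 CPM in thymus, 18.7 ± 0.889 CPM in bone and 0.508 ± 0.0640 CPM in skin (bone minus skin 5.20 ± 0.36, adjusted p = 8.87e-07). Gata6, a factor of heart and visceral mesoderm, was the reverse, at 58.2 ± 7.39 CPM in thymus, 3.51 ± 1.74 CPM in bone and 51.3 ± 4.14 CPM in skin. Hic1, a gene of quiescent mesenchymal progenitors, was also lower in bone than in skin (log2 -2.27 ± 0.21, adjusted p = 6.32e-06). Osr2 of palate and limb was lower in thymus than in skin (log2 -3.39 ± 0.29, adjusted p = 6.57e-06), at 54.3 ± 20.0 CPM in thymus, 78.5 ± 8.46 CPM in bone and 570.3 ± 178 CPM in skin.

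The signals that set up these domains were tested for 28 of 33 listed genes, with, beside the same shares of all genes, 8 higher and 9 lower in thymus than in bone, 6 higher and 14 lower in thymus than in skin, and, for bone against skin, 7 higher and 12 lower (medians -0.11, -0.58 and -0.06). Rspo2, a Wnt amplifier of the limb bud, was at 0.00839, 0.0418 and 0.0196 CPM in thymus, 64.1, 47.2 and 46.4 CPM in bone, and 10.4, 5.00 and 9.87 CPM in skin. Thymus was separate and near 0 (thymus minus bone -11.05 ± 0.48, adjusted p = 4.48e-08). The retinoic acid synthases Aldh1a2 and Aldh1a1 had opposite patterns, with bone minus skin at 5.46 ± 0.31 (adjusted p = 2.66e-07) and -3.38 ± 0.22 (adjusted p = 5.85e-07). Ednra, the endothelin receptor upstream of Hand2 and Dlx genes in the mouse pharyngeal arch, averaged 226 ± 17.5 CPM in thymus, 72.4 ± 9.65 CPM in bone and 15.3 ± 5.19 CPM in skin. It was higher in thymus than in skin (log2 3.88 ± 0.24, adjusted p = 3.21e-07) and than in bone (1.65 ± 0.21, adjusted p = 0.000122).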

How the data were processed

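The authors deposited, for each of 9 libraries, read counts per gene, and a table of RPKM values with gene coordinates and a coverage signal that was not used here. CASAVA 1.8.2, HTSeq 0.5.4 and mm10 are named, per the submitters' processing notes, without their roles, and no source names the aligner, annotation or strand setting, which are therefore not given here. The deposited counts held 5.05 to 14.8% of reads on summary lines that name no gene, which were left out. Counts of 23420 genes were filtered with filterByExpr, which kept 15635, scaled by TMM and fitted once over all 9 libraries with edgeR 4.0.16 (quasi-likelihood, robust) in R 4.3.3, with a mean per tissue. P-values were adjusted by Benjamini-Hochberg over all genes tested, at 0.05. The deposited RPKM served to order genes within a tissue. Genes were described in full when their mean reached 10 CPM in a tissue, or when apart with 1 CPM in the highest tissue (upward) or in both other tissues (downward), and other genes only by counts and ranges, or with values where another cell type expresses them, they neighbour a described gene or they belong to a related list (up to 4 with the smallest adjusted p). Genes and lists were chosen with earlier results of these data known. A fold against a group with 0 reads used a floor of 3 reads over the group, and such floors, like the 95% counting intervals, hold only the error of counting. Replicates of a tissue differed beyond sampling noise in every pair (chi-square per degree of freedom 92.7 to 297). Alternatives were DESeq2 1.42.0, limma 3.58.1 on log2 RPKM with a pseudocount of 1 or 0.1, other scalings and filters, a replicate block and leaving out each library. The edgeR script was tested on simulated counts. Values of some genes that the choice includes are not reported here.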

Additional observations from a re-analysis of the deposited data

How the results depend on the processing

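Of 105 named calls, 25 were lost in at least 1 alternative. The other 80 were kept in each alternative that gave a value, which was each of 20 for 74 calls and 17 or 18 for 6 calls of Dlx6, Msx2, Tbx22 and Zic4. The losses named with a gene above are often only those from leaving out a library. Dlx5 for thymus minus skin, for example, was lost in 11 of 20 alternatives. With library size as the only scaling, the factors higher in bone than in skin numbered 29 in place of 18, those apart upward in bone 14 in place of 8, apart downward in bone 5 in place of 8, and apart downward in skin 10 in place of 6. That scaling moved the median of all genes to 0.66 for thymus minus skin and 0.72 for bone minus skin, and the split of all genes to 7219 higher and 1239 lower in thymus than in skin, against 3013 and 2865 with TMM, and to 7474 and 1391 in bone against skin, against 3702 and 3661 with TMM. With limma on log2 RPKM and a pseudocount of 1, 17 factors were lower in thymus than in skin in place of 28, 14 lower in bone than in skin in place of 22, 6 apart downward in thymus in place of 15, and 2 apart downward in bone. With a pseudocount of 0.1 these were 13 lower in bone than in skin and 5 apart downward in bone. Without the filter on RPKM, 29 were higher in bone than in skin, 6 apart downward in thymus and 2 apart downward in bone. The cause was not tested.

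The sign turned for Eya3, at 0.36 for thymus minus skin and 0.36 for bone minus skin with library size only, and at 0.19, 0.22 and 0.19 for bone minus skin in the 3 RPKM settings. It turned for Six5, at 0.12 for thymus minus skin with library size only and at 0.033, 0.034 and 0.033 in the 3 RPKM settings. Leaving out 1 library gave 11 to 14 factors higher and 20 to 24 lower in thymus than in bone, 12 to 15 higher and 22 to 27 lower in thymus than in skin, and 15 to 19 higher and 18 to 23 lower in bone than in skin. Factors apart numbered 6 to 8 upward and 13 to 15 downward in thymus, 7 to 9 and 5 to 9 in bone, and 11 to 13 and 6 to 8 in skin. Replicate numbers were shared between tissues, and the labels do not say whether they pair the samples. Deviations from the tissue mean correlated at -0.0823 to 0.0910 between libraries of 1 number, and thymus 1-3 had no partner. With 3 libraries per tissue this cannot settle whether samples were paired. A fit with the replicate block did not call Dlx4 or Dlx6 for thymus minus bone (adjusted p = 0.0534 and 0.0931), called 5 factors apart downward in bone in place of 8, and gave 1663 genes higher and 1736 lower in thymus than in bone over all genes.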
